A study of Mus musculus with 56 samples.

Results

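Wild-type cortex was compared with wild-type hippocampus over all genes of the deposited brain table. The 6 libraries used are those titled as cortex WT (3) or hippocampus WT (3), out of 56 mouse samples in the series, and no knockout library was used. The series concerns FMRP, the RNA-binding protein encoded by Fmr1, and its other samples are Fmr1 knockout tissues, other wild-type organs and Neuro-2a neuroblastoma cells. Both groups are wild-type tissue with no treatment named in the labels, and RNA came from TRIzol extraction of powdered tissue followed by poly(A) selection and a directional library kit. The labels name no strain or age, and they do not say whether a sample is 1 animal or a pool, or whether cortex and hippocampus samples of the same number share an animal. The p-values therefore measure the spread between these samples, which may be technical.

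The neocortex is a layered sheet in which the upper layers hold neurons that project within the cortex, the middle layer receives thalamic input, and the deep layers project to subcortical targets. The hippocampus is a simpler cortical structure made of the dentate gyrus, whose granule cells send mossy fibres to field CA3, and the pyramidal fields CA3, CA2 and CA1. Both derive from the dorsal forebrain (pallium) and share most neuron and glia classes, so their transcriptomes are told apart mainly by field and layer genes, patterning transcription factors, receptors, channels and axon guidance molecules.

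The 6 libraries held 26264368 (cortex WT 3) to 41384652 (hippocampus WT 3) counts over 15777 genes, and 14871 genes passed the filter on low counts. Levels are in CPM, the counts of a gene relative to the library's total scaled by TMM factors and are listed for libraries 1, 2 and 3 of a group in that order, while sums over genes are in TPM, which also takes account of gene length. A fold change is hippocampus over cortex on the log2 scale with its standard error (SE), and a gene is called higher or lower at an adjusted p under 0.05 in edgeR's quasi-likelihood test with Benjamini-Hochberg adjustment over the 14871 genes. By that rule 6214 genes differed (41.8%), of which 3188 were higher (21.4%) and 3026 lower (20.3%) in hippocampus. At least 2-fold differences were called for 1403 genes (9.43%), with 803 higher (5.4%) and 600 lower (4.03%), and the CPM of the groups did not overlap for 7975 genes (53.6%). At least 8-fold differences were called for 113 higher and 68 lower genes. The median log2 fold change of all tested genes was 0.01. Correlations of log CPM across genes were 0.985 to 0.995 within regions and 0.951 to 0.967 between them, the first principal component (74.3% of variance) separated the regions, and hippocampus WT 1 lay nearer to cortex (28.2) than hippocampus WT 2 and 3 (47.8 and 50.6). The 4 Y-linked genes examined were measured in all 6 libraries, at 116 to 131 TPM in sum. The ribosomal RNA gene Rn45s made up 0.868% of the counts of hippocampus WT 2 and was the most abundant gene there.

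**Figure D1:**
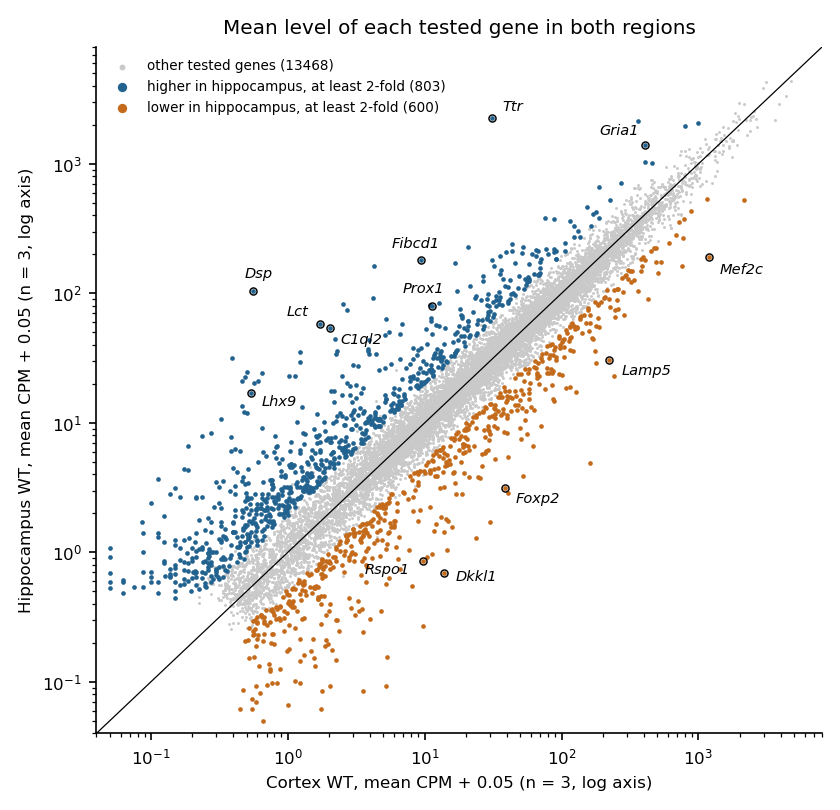
Mean CPM of each of the 14871 tested genes in cortex WT (x axis) and hippocampus WT (y axis), both on log axes with 0.05 added. Blue points are the 803 genes called at least 2-fold higher and orange points the 600 called at least 2-fold lower in hippocampus, grey points are the other tested genes, the line marks equal levels, and circled genes are described in the text.

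Markers of tissue next to the dissected regions differed between libraries of 1 region, and these values stand beside the results they touch. In cortex, 15 of 16 tested markers of striatal projection neurons, the main neurons of the striatum beneath the cortex, were called lower in hippocampus, and the 16 markers summed to 543 TPM in cortex WT 1, 945 in cortex WT 2 and 1844 in cortex WT 3, against 212 to 271 TPM in hippocampus. Adora2a, the adenosine receptor of striatopallidal neurons, measured 9.07, 18.6 and 42.9 CPM in cortex and 1.22, 1.38 and 1.11 CPM in hippocampus. Ppp1r1b, which encodes the dopamine-regulated phosphatase inhibitor DARPP-32, measured 100.2, 162 and 299 CPM in cortex and 30.5, 66.6 and 66.7 CPM in hippocampus. Cortex WT 3 thus had the highest level of both genes and of the list's sum, and no striatal marker was at 0 in a cortex library. Without cortex WT 2 and 3, 11 of the 16 were called lower, and without hippocampus WT 2 and 3, 7.

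Markers of the choroid plexus, the secretory epithelium of the ventricles, split the hippocampus libraries. The 18 markers in the table summed to 62.4 TPM in hippocampus WT 1, 11492 in hippocampus WT 2 and 8689 in hippocampus WT 3, against 41.3 to 198 TPM in cortex. Ttr, which encodes the carrier transthyretin, measured 25.1, 9.37 and 58.9 CPM in cortex and 7.24, 3849.5 and 2969 CPM in hippocampus. All 17 tested choroid plexus genes were called higher in hippocampus, yet in hippocampus WT 1 the levels of Ttr, Kcne2 and Aqp1 were below those of every cortex library, with Kcne2 and Tmem72 at 0. Fitted without hippocampus WT 2 and 3, 2 of the 17 were called, and the log2 fold change of Ttr was -2.10 (edgeR, adjusted p 0.165), against 6.19 ± 1.67 with all libraries. Without cortex WT 2 alone, 10 of the 18 that then passed the filter were called, and the calls were lost without cortex WT 2 and 3. Markers of ependyma, the ciliated lining of the ventricles, did not split the libraries in this way: all 13 were called higher in hippocampus, with summed levels of 47.8 to 60.1 TPM in cortex and 130 to 223 TPM in hippocampus, and 9 without hippocampus WT 2 and 3. Over all tested genes, 2418 were called without hippocampus WT 2 and 3 and 4093 without cortex WT 2 and 3, where 1 library stands for its region. What share of any difference below comes from striatal or choroid plexus tissue was not tested, and in bulk tissue fewer cells of a type and less RNA per cell cannot be told apart.

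**Figure D2:**
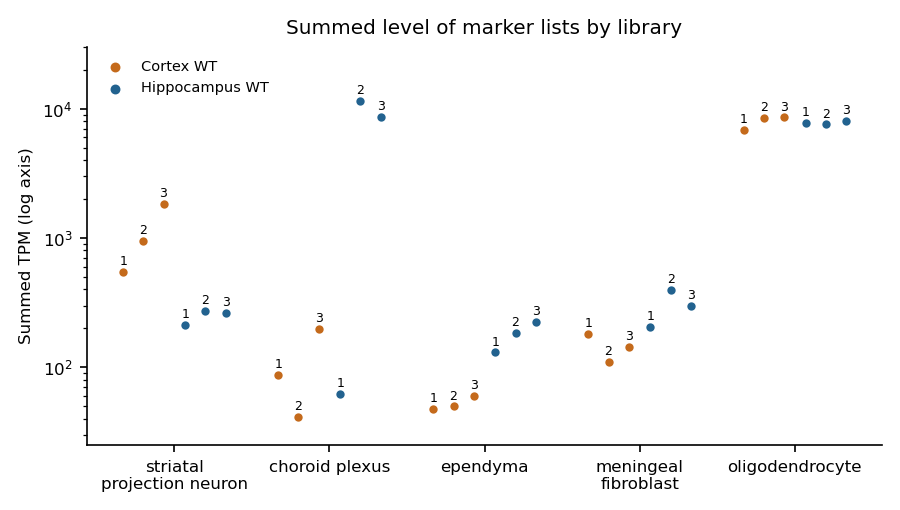
Summed TPM (log axis) of 5 marker lists in the 6 libraries, with the replicate number above each point and the region in colour. Striatal markers are highest in cortex WT 3 (1844 TPM), choroid plexus markers are high in hippocampus WT 2 and 3 (11492 and 8689 TPM) and low in hippocampus WT 1 (62.4 TPM), and oligodendrocyte markers lie between 6805 and 8547 TPM in all 6.

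The granule cell genes of the dentate gyrus were mostly higher in hippocampus. Of 21 tested markers, 16 were called higher and 4 lower, and the list's median log2 fold change was 1.14 against 0.01 for all tested genes. Without hippocampus WT 2 and 3, 14 were higher and 2 lower. Dsp (chromosome 13, 38151294 to 38198577, plus strand, GRCm38), which encodes the desmosomal linker desmoplakin, measured 0.380, 0.182 and 0.948 CPM in cortex and 94.2, 114 and 108 CPM in hippocampus. Its log2 fold change of 7.71 ± 0.26 (edgeR, adjusted p 3.80e-07) was the largest among the genes named by size, and the next of those higher in hippocampus was Zcchc5, at 5.77. Lct (chromosome 1, 128284756 to 128328318, minus strand), the gene of the intestinal disaccharidase lactase, measured 1.67, 1.79 and 1.52 CPM in cortex and 54.2, 61.6 and 58.4 CPM in hippocampus, a log2 fold change of 5.13 ± 0.10 (edgeR, adjusted p 3.59e-08). C1ql2 (chromosome 1, 120340582 to 120343174, plus strand) encodes a secreted C1q-like protein that organises mossy fibre synapses, and measured 2.09, 2.08 and 1.82 CPM in cortex and 52.3, 54.7 and 55.5 CPM in hippocampus, a log2 fold change of 4.76 ± 0.08 (edgeR, adjusted p 3.59e-08). For these 3 genes hippocampus WT 1 lay close to hippocampus WT 2 and 3, and the regions did not overlap.

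The stretches before the start of these 3 dentate genes are shown beside those of Rspo1 and Rorb, 2 layer 4 genes that were lower in hippocampus, as examples of promoter sequence from a list that was mostly higher and a list that was mostly lower. Each is the 250 bases before the start of the gene in RefSeq (GRCm38.p6), written in the direction of the gene, with capitals for the E-box CANNTG that is bound by basic helix-loop-helix factors such as the Neurod family.
Dsp (chr13:38151044-38151293, plus strand): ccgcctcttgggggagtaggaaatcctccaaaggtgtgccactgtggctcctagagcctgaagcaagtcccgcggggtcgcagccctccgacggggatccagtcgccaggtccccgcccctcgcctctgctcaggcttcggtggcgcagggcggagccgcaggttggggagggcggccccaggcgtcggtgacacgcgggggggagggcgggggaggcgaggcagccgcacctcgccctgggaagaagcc
Lct (chr1:128328319-128328568, minus strand): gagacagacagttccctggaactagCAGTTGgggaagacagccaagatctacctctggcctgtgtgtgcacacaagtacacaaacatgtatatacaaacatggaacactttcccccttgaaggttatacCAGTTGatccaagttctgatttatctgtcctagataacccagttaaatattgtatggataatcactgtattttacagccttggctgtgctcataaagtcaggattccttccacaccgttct
C1ql2 (chr1:120340332-120340581, plus strand): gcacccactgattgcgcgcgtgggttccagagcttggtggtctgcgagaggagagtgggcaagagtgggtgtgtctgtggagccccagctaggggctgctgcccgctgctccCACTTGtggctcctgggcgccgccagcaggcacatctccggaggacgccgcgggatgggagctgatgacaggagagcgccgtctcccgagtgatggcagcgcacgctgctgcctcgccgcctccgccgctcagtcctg
Rspo1 (chr4:124986180-124986429, plus strand): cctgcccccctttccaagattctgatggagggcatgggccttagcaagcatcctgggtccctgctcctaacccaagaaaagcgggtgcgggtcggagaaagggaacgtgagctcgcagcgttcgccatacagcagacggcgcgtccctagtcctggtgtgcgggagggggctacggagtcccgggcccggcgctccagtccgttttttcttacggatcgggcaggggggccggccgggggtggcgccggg
Rorb (chr19:19111197-19111446, minus strand): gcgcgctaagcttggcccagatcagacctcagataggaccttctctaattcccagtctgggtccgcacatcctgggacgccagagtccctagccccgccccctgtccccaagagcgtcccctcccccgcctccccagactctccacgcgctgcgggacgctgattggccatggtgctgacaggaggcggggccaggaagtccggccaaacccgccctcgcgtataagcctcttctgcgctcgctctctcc
Searched on both strands, the Lct stretch held 2 E-boxes and the C1ql2 stretch 1, and no E-box letters were in the other 3, where 66.2% of 32851 such stretches in the RefSeq table held at least 1. The T-box letters AGGTGTGA (1.12% of stretches) and the cyclic AMP response element TGACGTCA (1.55%) were in none of the 5. The G and C content was 72.4% for Dsp, 42.8% for Lct, 68.8% for C1ql2, 66.8% for Rspo1 and 66% for Rorb.

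Prox1 (chromosome 1, 190118035 to 190170714, minus strand), the homeobox factor that sets and maintains granule cell identity, measured 9.45, 12.1 and 12 CPM in cortex and 75.7, 87.6 and 77.2 CPM in hippocampus, a log2 fold change of 2.84 ± 0.11 (edgeR, adjusted p 6.46e-07). Tdo2, a marker of the same cells that encodes tryptophan dioxygenase, differed by 4.08 ± 0.29. The Notch coactivator gene Maml2 differed by 2.11 ± 0.07 and the transcription factor gene Rfx3 by 1.38 ± 0.09. The 4 granule cell markers that were lower in hippocampus differed less, and none reached 2-fold. They were Akap5, the scaffold of kinases at synapses (-0.60 ± 0.09), Npnt (-0.40 ± 0.12), Pdzd2 (-0.34 ± 0.10) and the calcium buffer gene Calb1 (-0.25 ± 0.04). Npnt lost its call without cortex WT 1 or 2 or hippocampus WT 2 or 3, and Pdzd2 without cortex WT 2 or 3 or hippocampus WT 1.

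Among 7 markers of hilar mossy cells, the excitatory neurons inside the dentate gyrus, 3 were called higher and 2 lower (median log2 fold change 0.75), and 1, higher, without hippocampus WT 2 and 3. Calb2, which encodes calretinin and also marks some interneurons, measured 8.16, 8.46 and 11.6 CPM in cortex and 41.6, 27 and 45.6 CPM in hippocampus, a log2 fold change of 2.02 ± 0.21 (edgeR, adjusted p 0.000122). Drd2, which is also a striatal gene, measured 4.4, 9.59 and 22.3 CPM in cortex and 1.33, 1.66 and 1.85 CPM in hippocampus, highest in cortex WT 3, as for the striatal markers. Of 13 genes of newborn dentate neurons and progenitors, 3 were higher (23.1%) and 2 lower (15.4%). The higher share was near the 21.4% of all tested genes, and the lower share was below their 20.3%. Igfbpl1 and Hopx were higher by 2.05 ± 0.26 and 1.40 ± 0.14 on the log2 scale. Dcx, the microtubule protein of migrating neurons, measured 51.8, 55.9 and 56.1 CPM in cortex and 31.6, 29 and 27.7 CPM in hippocampus, and Stmn1 measured 513, 484 and 463 CPM in cortex and 210.1, 158 and 155 CPM in hippocampus. Both are known in other neurons too, and both were lower in hippocampus. The list's summed level was 661 to 830 TPM in hippocampus and 1606 to 1729 TPM in cortex, opposite in sign to its median log2 fold change of 0.18.

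CA1 markers were mostly higher in hippocampus: 9 of 12 tested were called higher, 2 lower, and their median log2 fold change was 1.18. Fibcd1 (chromosome 2, 31813290 to 31846005, minus strand), which encodes a membrane receptor for acetylated sugars, measured 10.8, 8.35 and 8.95 CPM in cortex and 173, 173 and 194 CPM in hippocampus, a log2 fold change of 4.27 ± 0.10 (edgeR, adjusted p 8.05e-08). Spink8, of a family of protease inhibitors, measured 0.114, 0.328 and 0.379 CPM in cortex and 9.82, 10.4 and 11.5 CPM in hippocampus. Lefty1, an antagonist of the TGF-beta family ligand Nodal, measured 0.228, 0.474 and 0.303 CPM in cortex and 5.98, 5.08 and 6.92 CPM in hippocampus. Spink8 and Lefty1 were under 1 CPM in every cortex library. Wfs1, the endoplasmic reticulum protein wolframin, measured 78.3, 60.5 and 99.9 CPM in cortex and 162, 134 and 123 CPM in hippocampus, and its log2 fold change was 0.81 ± 0.17 (edgeR, adjusted p 0.00526), with the lowest hippocampus library above the highest cortex library. Zdhhc2, a palmitoyltransferase gene, was lower (-0.35 ± 0.07).

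All 13 CA3 markers were called, 9 higher and 4 lower, with a median log2 fold change of 0.84. Slc9a4 (chromosome 1, 40580081 to 40630725, plus strand), a sodium-proton exchanger, measured 0.342, 0.474 and 0.417 CPM in cortex and 20.4, 19.7 and 22.9 CPM in hippocampus, a log2 fold change of 5.66 ± 0.15 (edgeR, adjusted p 1.26e-07). Iyd, the deiodinase of iodotyrosines, measured 0.114, 0.0729 and 0.227 CPM in cortex and 4.12, 4.44 and 4.24 CPM in hippocampus. Grik4, the kainate receptor subunit found at mossy fibre synapses, measured 19.9, 20.7 and 17.4 CPM in cortex and 52.6, 50.7 and 59 CPM in hippocampus, a log2 fold change of 1.49 ± 0.09 (edgeR, adjusted p 5.78e-06). The regions did not overlap for any of these 3 genes. Coch, an extracellular matrix gene, went the other way (51.9, 46.2 and 53.3 CPM in cortex and 5.91, 8.15 and 8.49 CPM in hippocampus), and was the 1 CA3 marker lower by at least 2-fold. Without hippocampus WT 2 and 3, 9 were higher and 1 lower.

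CA2 is a small field between CA3 and CA1, and 5 of its 9 tested markers were higher and 2 lower. Rgs14, which limits synaptic plasticity in CA2, measured 31.7, 30.1 and 33.5 CPM in cortex and 87.7, 85.1 and 86.7 CPM in hippocampus, a log2 fold change of 1.44 ± 0.06 (edgeR, adjusted p 8.80e-07). Amigo2, an adhesion molecule, differed by 2.25 ± 0.14 and the neurotrophin gene Ntf3 by 2.78 ± 0.24. Pcp4, a calmodulin regulator used as a CA2 marker, was lower in hippocampus (206, 243 and 295 CPM in cortex and 77.9, 64.7 and 82.1 CPM in hippocampus), as was the adenylate cyclase gene Adcy5 (145, 178 and 272 CPM in cortex and 128, 124 and 126 CPM in hippocampus). Both were highest in cortex WT 3, where striatal markers were highest. Adcy5 lost its call without cortex WT 2 or hippocampus WT 2 or 3. The summed level of the 9 genes was 827 to 964 TPM in hippocampus and 1566 to 2425 TPM in cortex, opposite in sign to the median log2 fold change of 1.39. Map3k15 measured 0.949, 1.02 and 1.71 CPM in cortex and 1.97, 5.57 and 5.03 CPM in hippocampus, lowest of the hippocampus libraries in WT 1 as for the choroid plexus markers, and its log2 fold change without hippocampus WT 2 and 3 was 0.69 (edgeR, adjusted p 0.326).

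**Figure D3:**
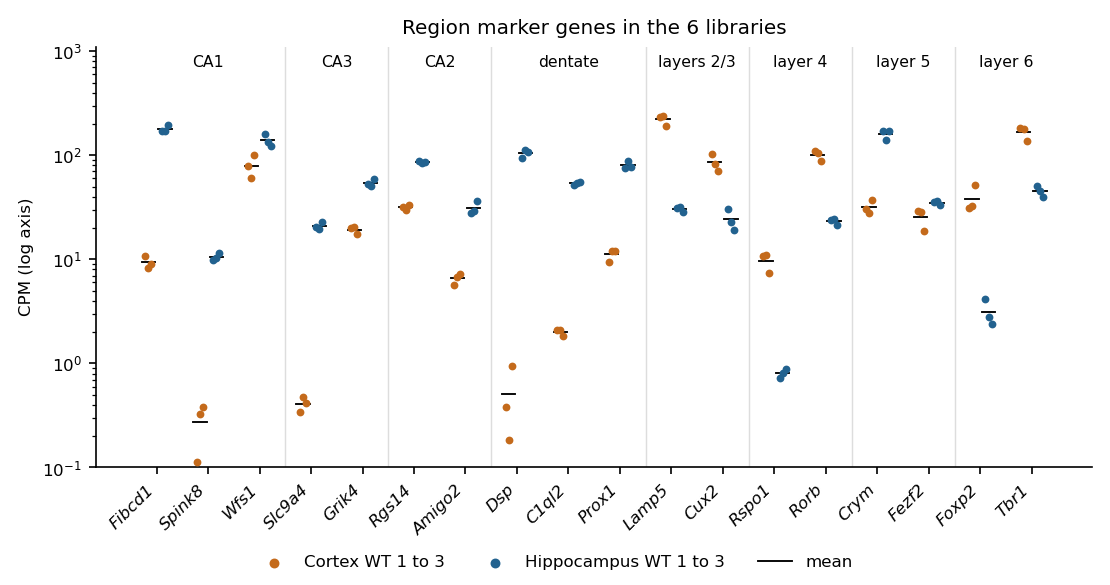
CPM (log axis) of 18 field and layer genes in the 3 cortex and 3 hippocampus libraries, with a line at each mean. Hippocampal field genes lie higher in hippocampus, layer 2/3, 4 and 6 genes lie higher in cortex, and the layer 5 genes Crym and Fezf2 lie higher in hippocampus.

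On the cortical side, layer 4 genes showed the most one-sided count of the 4 layer lists. Of 11 tested, 8 were called lower and 1 higher in hippocampus, with a median log2 fold change of -1.03. The summed level of the 11 genes was 571 to 681 TPM in cortex and 601 to 649 TPM in hippocampus, so the regions overlapped in the sum. Rspo1 (chromosome 4, 124986430 to 125009099, plus strand), a secreted enhancer of Wnt signalling, measured 10.7, 11 and 7.43 CPM in cortex and 0.717, 0.811 and 0.877 CPM in hippocampus, a log2 fold change of -3.58 ± 0.20 (edgeR, adjusted p 4.84e-06). Rorb (chromosome 19, 18930605 to 19111196, minus strand), the nuclear receptor that defines layer 4, measured 109, 106 and 87.6 CPM in cortex and 23.7, 24.6 and 21.3 CPM in hippocampus, a log2 fold change of -2.13 ± 0.10 (edgeR, adjusted p 1.62e-06). Kcnh5, a potassium channel gene, differed by -2.17 ± 0.15. The gene that was higher was Zbtb18, a repressor needed in many pallial neurons (479, 491 and 397 CPM in cortex and 698, 719 and 674 CPM in hippocampus).

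Layer 2/3 genes were lower for 6 of 11 and higher for 4, with a median log2 fold change of -1.0. Lamp5 (chromosome 2, 136052239 to 136069917, plus strand), a membrane protein of the lysosome family that also marks a class of interneurons, measured 234, 239 and 193 CPM in cortex and 31.2, 31.6 and 28.4 CPM in hippocampus, a log2 fold change of -2.87 ± 0.09 (edgeR, adjusted p 3.04e-07). Cux2, a homeobox factor of upper-layer neurons, measured 103, 83.2 and 70.7 CPM in cortex and 30.8, 23 and 19.2 CPM in hippocampus, a log2 fold change of -1.82 ± 0.19 (edgeR, adjusted p 0.000114). Stard8, an activator of small GTPases, differed by -1.97 ± 0.09 and Otof by -1.90 ± 0.24. Mdga1, an adhesion molecule that limits synapse formation, measured 19.6, 12.4 and 22.3 CPM in cortex and 72.8, 77.3 and 76.3 CPM in hippocampus, and Ccbe1 measured 6.41, 10.9 and 8.91 CPM in cortex and 28.1, 36.1 and 35.2 CPM in hippocampus. These 2 genes are taken as upper-layer markers within cortex but were higher in hippocampus.

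Of 16 tested genes of layers 6 and 6b, 9 were lower and 3 higher, with a median log2 fold change of -1.0. Foxp2, a forkhead factor of corticothalamic neurons, measured 31, 32.8 and 51.4 CPM in cortex and 4.12, 2.79 and 2.37 CPM in hippocampus, a log2 fold change of -3.66 ± 0.26 (edgeR, adjusted p 1.46e-05). It is also expressed in striatum and thalamus and was highest in cortex WT 3, and without cortex WT 2 and 3 the log2 fold change was -3.35 (edgeR, adjusted p 0.00114). Tbr1, a T-box factor of deep-layer neurons, measured 184, 181 and 139 CPM in cortex and 50.2, 45.7 and 39.4 CPM in hippocampus, a log2 fold change of -1.90 ± 0.12 (edgeR, adjusted p 1.05e-05). Cplx3, a complexin of subplate neurons, measured 20.2, 15.3 and 12.9 CPM in cortex and 6.41, 3.14 and 2.66 CPM in hippocampus. Drd1, held by the striatal list too, measured 20.8, 31.1 and 70.7 CPM in cortex and 7.52, 4.58 and 4.17 CPM in hippocampus. Thsd7b and Hs3st4 were higher by 0.96 ± 0.14 and 0.46 ± 0.06, and the third higher gene was Moxd1 (0.42 ± 0.10).

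Layer 5 genes went against the list's name: 9 of 14 were higher in hippocampus and 2 lower, with a median log2 fold change of 0.46. Crym, a binding protein for thyroid hormone, measured 30.2, 28.2 and 37.1 CPM in cortex and 171, 141 and 173 CPM in hippocampus, a log2 fold change of 2.34 ± 0.12 (edgeR, adjusted p 2.32e-06). Bcl6, a transcriptional repressor, measured 27.9, 27.6 and 26.5 CPM in cortex and 61.7, 55.5 and 51.8 CPM in hippocampus. Bcl11b, which encodes CTIP2 and is also known in CA1 and granule cells, measured 68.5, 87 and 119 CPM in cortex and 185, 194 and 179.5 CPM in hippocampus. Fezf2, which specifies subcortical projection neurons, measured 29, 28.8 and 18.7 CPM in cortex and 35.4, 36.7 and 33.3 CPM in hippocampus, a log2 fold change of 0.46 ± 0.15 (edgeR, adjusted p 0.0369). Its call was lost when any 1 of the hippocampus libraries was left out (edgeR, adjusted p 0.0595, 0.105 and 0.0726 without WT 1, 2 and 3). Deptor, an inhibitor of the kinase mTOR, was lower (50.1, 53.9 and 47.1 CPM in cortex and 24, 27 and 21 CPM in hippocampus), as was Qrfpr (-1.60 ± 0.26).

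**Figure D4:**
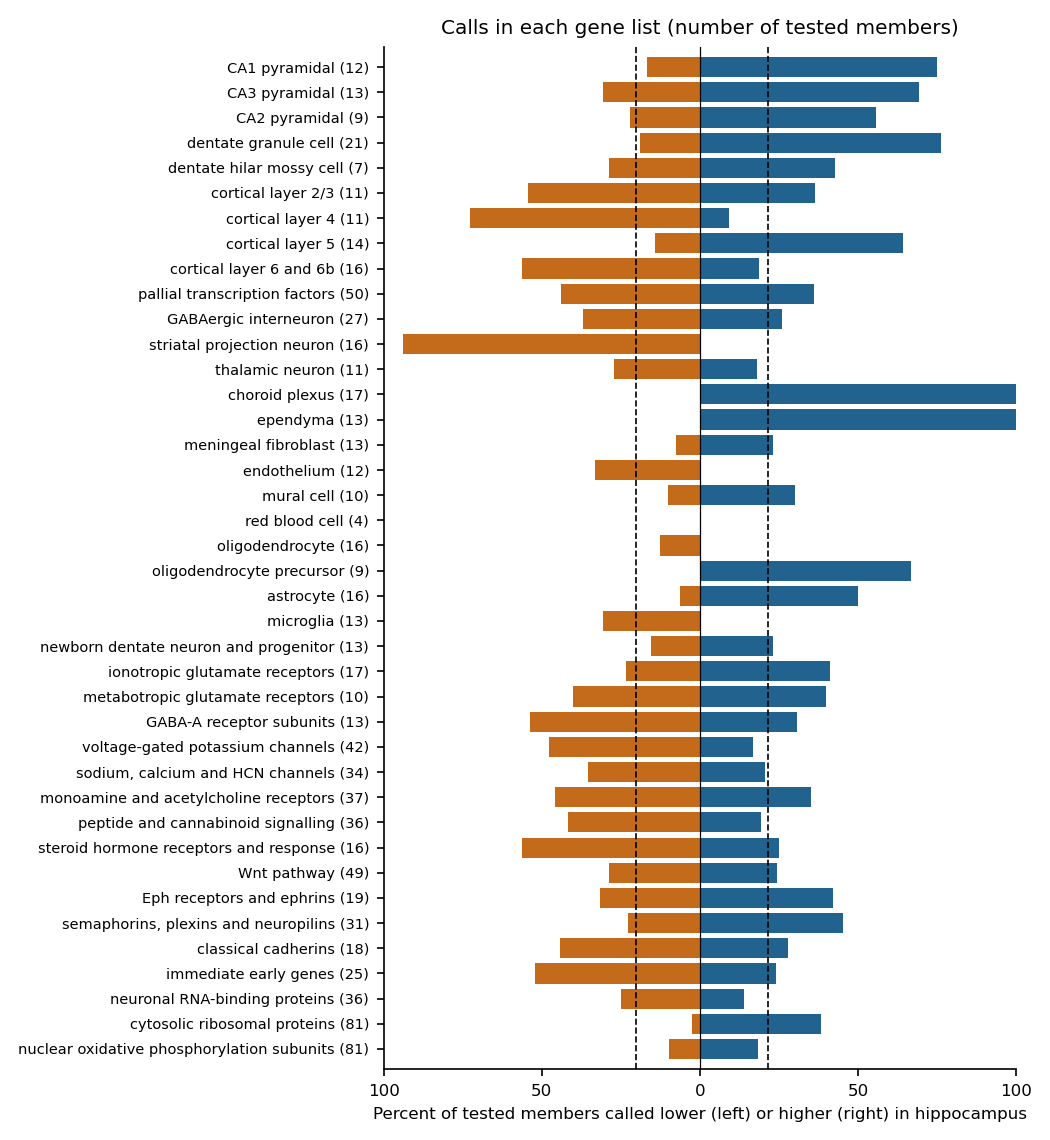
Percent of the tested members of each of 40 gene lists that were called higher (right, blue) or lower (left, orange) in hippocampus, with the number of tested members in brackets and dashed lines at the 21.4% higher and 20.3% lower of all tested genes. Choroid plexus and ependyma lists reach 100% higher and the striatal list 93.8% lower.

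Among 50 transcription factors of the developing and adult pallium, 18 were higher and 22 lower in hippocampus, 10 and 13 of them by at least 2-fold, with a median log2 fold change of 0.01. Lhx9 (chromosome 1, 138825186 to 138848577, minus strand), a LIM homeobox factor, measured 0.455, 0.328 and 0.682 CPM in cortex and 16.1, 15.6 and 18.9 CPM in hippocampus, a log2 fold change of 5.10 ± 0.21 (edgeR, adjusted p 8.57e-07). Zbtb20 (chromosome 16, 42875881 to 43642602, plus strand), a zinc finger repressor required for hippocampal fate, measured 3.91, 4.74 and 4.55 CPM in cortex and 30.1, 36 and 35.1 CPM in hippocampus, a log2 fold change of 2.94 ± 0.11 (edgeR, adjusted p 6.20e-07). For both genes the regions did not overlap. Other genes called higher encode basic helix-loop-helix factors of excitatory neurons: Bhlhe22 (1.53 ± 0.06), Neurod6 (1.23 ± 0.08), Neurod2 (1.06 ± 0.11) and Neurod1 (0.95 ± 0.10). Lmo1 (2.32 ± 0.11) and Nr2f2 (1.53 ± 0.12), a LIM cofactor and an orphan nuclear receptor, were higher too.

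Mef2c (chromosome 13, 83504034 to 83667080, plus strand), an activity-regulated factor that restrains synapse number, measured 1298, 1249.5 and 1032 CPM in cortex and 237, 182 and 151 CPM in hippocampus, a log2 fold change of -2.65 ± 0.16 (edgeR, adjusted p 7.20e-06). Hippocampus WT 1 had the highest of the hippocampal levels. Pou3f2, a POU factor of upper-layer neurons, measured 50.2, 60.6 and 55.4 CPM in cortex and 12.9, 12 and 12.4 CPM in hippocampus, and Rora, of the same receptor family as Rorb, measured 162, 156 and 136 CPM in cortex and 63.5, 59 and 55.9 CPM in hippocampus. Meis2 was lower in hippocampus (97.1, 136 and 189 CPM in cortex and 61, 48 and 40.5 CPM in hippocampus) and highest in cortex WT 3.

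Of 27 genes of GABAergic interneurons, the inhibitory local neurons of both regions, 7 were higher and 10 lower (median log2 fold change -0.13), and the numbers were 6 and 4 without hippocampus WT 2 and 3 and 7 and 4 without cortex WT 2 and 3. The vesicular GABA transporter gene Slc32a1 (-0.13 ± 0.08) was not called. Vip, the peptide of a class of disinhibitory cells, measured 51.2, 52.3 and 44.4 CPM in cortex and 17.5, 15.2 and 11.9 CPM in hippocampus, a log2 fold change of -1.74 ± 0.13 (edgeR, adjusted p 2.47e-05). Pvalb, the calcium buffer of fast-spiking cells, measured 35.8, 40.2 and 31.1 CPM in cortex and 17.9, 13.7 and 15.6 CPM in hippocampus, and Crh measured 5.69, 5.76 and 4.21 CPM in cortex and 1.11, 1.2 and 0.996 CPM in hippocampus. All of these were lower in hippocampus with no overlap. Sst was not called (113, 108 and 86.8 CPM in cortex and 128, 109 and 118 CPM in hippocampus, adjusted p 0.128 by edgeR). Nos1, the neuronal nitric oxide synthase, measured 17.6, 17.3 and 21.3 CPM in cortex and 67.5, 64.1 and 62 CPM in hippocampus, a log2 fold change of 1.78 ± 0.09 (edgeR, adjusted p 2.22e-06), and Htr3a, the ionotropic serotonin receptor of interneurons from the caudal ganglionic eminence, measured 4.17, 4.52 and 3.53 CPM in cortex and 10.9, 10.5 and 10.1 CPM in hippocampus. Tac1 was lower (12.4, 23.2 and 52.9 CPM in cortex and 8.85, 5.75 and 7.45 CPM in hippocampus) and highest in cortex WT 3.

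At excitatory synapses, 7 of 17 ionotropic glutamate receptor genes were higher and 4 lower in hippocampus, with a median log2 fold change of 0.23 and summed levels of 1601 to 1644 TPM in cortex and 2192 to 2258 TPM in hippocampus. Gria1 (chromosome 11, 57011387 to 57330244, plus strand), the AMPA receptor subunit needed for potentiation in CA1, measured 377, 403 and 452 CPM in cortex and 1344, 1398 and 1434 CPM in hippocampus, a log2 fold change of 1.76 ± 0.07 (edgeR, adjusted p 9.66e-07). The NMDA receptor subunit genes Grin2a and Grin2b, whose products set the receptor's kinetics, were higher by 1.03 ± 0.06 and 1.02 ± 0.09. Gria4, an AMPA subunit of interneurons and thalamic circuits, measured 190.0, 187 and 179 CPM in cortex and 94.5, 77.7 and 73 CPM in hippocampus, and the kainate subunit gene Grik3 measured 132, 128 and 121 CPM in cortex and 79.1, 69.4 and 61.4 CPM in hippocampus. Both were lower in hippocampus without overlap. Cacng8, an auxiliary AMPA receptor subunit known for its hippocampal expression, measured 22.2, 24.5 and 24.3 CPM in cortex and 90.8, 95.7 and 102 CPM in hippocampus, a log2 fold change of 2.02 ± 0.07 (edgeR, adjusted p 3.90e-07), and its relatives Cacng3 and Cacng2 were lower (-1.27 ± 0.09 and -0.83 ± 0.09).

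Of 10 metabotropic receptor and Homer scaffold genes, 4 were higher and 4 lower (median log2 fold change 0.05). Homer3 measured 5.28, 4.85 and 5.16 CPM in cortex and 44.1, 49 and 50.4 CPM in hippocampus, a log2 fold change of 3.23 ± 0.08 (edgeR, adjusted p 1.03e-07). Homer1, also induced by activity, measured 280.1, 294 and 259 CPM in cortex and 135, 136 and 124 CPM in hippocampus and so went the other way. The postsynaptic receptor gene Grm5 was higher (0.51 ± 0.09), whereas Grm8, Grm4 and Grm3, receptors that lower cyclic AMP, were lower (-1.40 ± 0.10, -1.13 ± 0.16 and -0.85 ± 0.07).

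At inhibitory synapses, 4 of 13 GABA-A receptor subunit genes were higher and 7 lower, with a median log2 fold change of -0.54. Gabra5, the subunit of extrasynaptic receptors on hippocampal pyramidal cells, measured 67.9, 64.9 and 63 CPM in cortex and 222, 217 and 215 CPM in hippocampus, a log2 fold change of 1.74 ± 0.05 (edgeR, adjusted p 1.31e-07). Gabrd, the subunit that forms extrasynaptic receptors in granule cells and interneurons, measured 59.9, 57.4 and 56.1 CPM in cortex and 18.3, 16.7 and 16.3 CPM in hippocampus, a log2 fold change of -1.76 ± 0.07 (edgeR, adjusted p 6.91e-07). The alpha subunit genes thus differed in both directions, with Gabra2 higher (0.63 ± 0.11) and Gabra3 and Gabra4 lower (-1.29 ± 0.09 and -0.63 ± 0.05), and the summed level of all 13 was 1266 to 1433 TPM in hippocampus against 1726 to 1765 TPM in cortex.

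**Figure D5:**
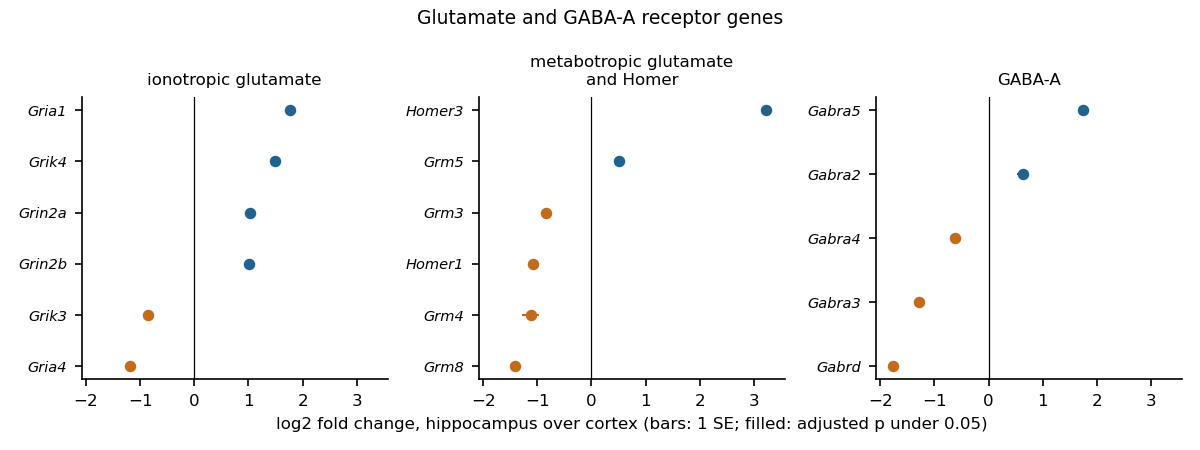
Log2 fold change (hippocampus over cortex) of 17 receptor and Homer genes named in the text, in 3 groups, with bars of 1 SE and filled points for genes with an adjusted p under 0.05. Gria1, Homer3 and Gabra5 have the highest values of their groups (1.76, 3.23 and 1.74) and Gria4, Grm8 and Gabrd the lowest (-1.18, -1.40 and -1.76).

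Voltage-gated potassium channel genes were more often lower than higher: 20 of 42 tested were called lower and 7 higher in hippocampus, with a median log2 fold change of -0.20. Kcnh4, of the ether-a-go-go family, measured 14.7, 15.9 and 12.4 CPM in cortex and 2.26, 1.69 and 1.35 CPM in hippocampus, a log2 fold change of -3.04 ± 0.19 (edgeR, adjusted p 8.40e-06). Kcnab3, a beta subunit, differed by -1.68 ± 0.10. Kcng2, a silent subunit that modifies delayed rectifier channels, measured 2.66, 1.97 and 1.78 CPM in cortex and 16.4, 16.8 and 19.6 CPM in hippocampus, a log2 fold change of 3.04 ± 0.16 (edgeR, adjusted p 3.19e-06). Kcnab2 and Kcng1 were also higher (0.73 ± 0.07 and 1.22 ± 0.10).

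Sodium, calcium and HCN channel genes were lower for 12 of 34 and higher for 7 (median log2 fold change -0.18), and the numbers were 7 and 5 without hippocampus WT 2 and 3. Scn1a, the sodium channel gene of fast-spiking interneurons, differed by -1.13 ± 0.08 and the calcium channel beta subunit gene Cacnb4 by -1.30 ± 0.11. Cacna1h, a T-type calcium channel gene, measured 32.6, 35.7 and 43.8 CPM in cortex and 123, 134 and 127 CPM in hippocampus, a log2 fold change of 1.78 ± 0.10 (edgeR, adjusted p 4.88e-06), and Scn3b measured 112, 109 and 148 CPM in cortex and 318, 340.2 and 338 CPM in hippocampus. The beta subunit gene Scn4b measured 155, 222 and 345 CPM in cortex and 26.2, 20.1 and 22.1 CPM in hippocampus, and its cortical level was highest in cortex WT 3. Without cortex WT 2 and 3 the log2 fold change of Scn4b was -2.78 (edgeR, adjusted p 0.000391).

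Receptors for monoamines and acetylcholine differed widely: 13 of 37 were higher and 17 lower in hippocampus, 11 and 12 of them by at least 2-fold, with a median log2 fold change of -0.22. Chrm5, a muscarinic receptor, measured 0.266, 0.255 and 0.607 CPM in cortex and 4.69, 3.88 and 3.75 CPM in hippocampus, a log2 fold change of 3.44 ± 0.30 (edgeR, adjusted p 4.89e-05). Htr5b and Htr4, serotonin receptors, differed by 3.26 ± 0.24 and 3.11 ± 0.26, and the dopamine receptor gene Drd5 by 2.78 ± 0.17. Each was under 4 CPM in every cortex library. Chrna7, the alpha7 nicotinic receptor, measured 10.9, 10.1 and 8.15 CPM in cortex and 24.9, 24.2 and 24.6 CPM in hippocampus. In the other direction, the adrenergic receptor gene Adra1b measured 17.8, 21.4 and 17.1 CPM in cortex and 3.19, 2.72 and 2.39 CPM in hippocampus, and Htr2a, the receptor through which psychedelics act in cortex, measured 26.5, 34.2 and 32.8 CPM in cortex and 11.8, 11.6 and 10.1 CPM in hippocampus, a log2 fold change of -1.48 ± 0.11 (edgeR, adjusted p 2.27e-05). Htr1d was highest in cortex WT 3 (0.569, 1.28 and 5.16 CPM in cortex and 0.358, 0.0705 and 0.166 CPM in hippocampus) and lost its call without hippocampus WT 3. Chrnb4, a nicotinic receptor subunit, was highest in hippocampus WT 3 (0.0759, 0.0729 and 0.341 CPM in cortex and 1.0, 1.09 and 5.81 CPM in hippocampus).

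Of 36 genes of neuropeptides, their receptors and cannabinoid signalling, 7 were higher and 15 lower (median log2 fold change -0.18). Npy2r, a presynaptic receptor for neuropeptide Y, measured 4.02, 3.24 and 8.38 CPM in cortex and 64.4, 61.6 and 63.7 CPM in hippocampus, a log2 fold change of 3.60 ± 0.27 (edgeR, adjusted p 2.10e-05), while Npy itself was lower (48.8, 58.3 and 51.1 CPM in cortex and 25.9, 27.8 and 28.6 CPM in hippocampus). Cckbr, the brain receptor for cholecystokinin, measured 58.2, 62.4 and 46.4 CPM in cortex and 10.4, 7.19 and 6.99 CPM in hippocampus, a log2 fold change of -2.78 ± 0.17 (edgeR, adjusted p 6.37e-06). Oprk1, the kappa opioid receptor, measured 14.9, 11.8 and 21 CPM in cortex and 1.5, 1.55 and 1.52 CPM in hippocampus, and Penk, a precursor of enkephalins that striatal neurons express strongly, measured 48.2, 102 and 234 CPM in cortex and 18.8, 16 and 17 CPM in hippocampus. Bdnf, the activity-regulated neurotrophin, was higher (36.8, 38.6 and 32.7 CPM in cortex and 56.8, 55.4 and 49.2 CPM in hippocampus), as was the somatostatin receptor gene Sstr4 (1.27 ± 0.19).

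The 2 receptors for corticosterone differed in opposite directions. Nr3c2 (chromosome 8, 76899442 to 77245012, plus strand), the mineralocorticoid receptor, which binds corticosterone with high affinity, measured 30.1, 30.9 and 32.8 CPM in cortex and 179, 185 and 175 CPM in hippocampus, a log2 fold change of 2.52 ± 0.06 (edgeR, adjusted p 5.40e-08). Nr3c1, the glucocorticoid receptor, was lower (193, 211 and 200.2 CPM in cortex and 131, 130.4 and 121 CPM in hippocampus), and Fkbp5, a chaperone that glucocorticoids induce, was higher (46.4, 39.9 and 52 CPM in cortex and 92.8, 88.4 and 93 CPM in hippocampus). The thyroid hormone receptor genes also differed in sign, with Thra at 0.79 ± 0.07 and Thrb at -0.71 ± 0.08, and Hr, a corepressor induced by thyroid hormone, was lower (59.5, 63.2 and 52.2 CPM in cortex and 14.7, 16.7 and 14.4 CPM in hippocampus). In all, 4 of the 16 steroid and thyroid hormone genes were higher and 9 lower (median log2 fold change -0.29).

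Among axon guidance genes, 14 of 31 semaphorin, plexin and neuropilin genes were higher and 7 lower in hippocampus (median log2 fold change 0.21). The neuropilin receptor gene Nrp1 measured 45.8, 46.3 and 45 CPM in cortex and 167, 174 and 175 CPM in hippocampus, a log2 fold change of 1.91 ± 0.05 (edgeR, adjusted p 8.77e-08), and Nrp2 differed by 1.77 ± 0.19. Sema3a, the secreted ligand of Nrp1, measured 63, 61.2 and 61.3 CPM in cortex and 7.81, 6.45 and 5.41 CPM in hippocampus, a log2 fold change of -3.25 ± 0.12 (edgeR, adjusted p 5.11e-07). The ligand gene was thus higher in the region with the lower level of its receptor gene. Plxnd1, a plexin receptor, measured 127, 102 and 114 CPM in cortex and 46.3, 34.3 and 29.8 CPM in hippocampus. Sema3b measured 3.04, 1.93 and 2.39 CPM in cortex and 2.51, 17.2 and 13.8 CPM in hippocampus, with hippocampus WT 1 at the cortical level as for choroid plexus genes, and its log2 fold change without hippocampus WT 2 and 3 was 0.04 (edgeR, adjusted p 0.962).

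Of 19 Eph receptor and ephrin genes, 8 were higher and 6 lower (median log2 fold change 0.17). Epha6 measured 19, 20.9 and 23.9 CPM in cortex and 106, 121 and 116 CPM in hippocampus, a log2 fold change of 2.43 ± 0.09 (edgeR, adjusted p 6.64e-07), and Epha7, Epha3, Epha4 and Epha5 were higher too (1.22 ± 0.09, 0.91 ± 0.16, 0.74 ± 0.07 and 0.57 ± 0.07). Efna5, a ligand of these EphA receptors, measured 61, 58.4 and 43.9 CPM in cortex and 11.8, 10.1 and 9.41 CPM in hippocampus, a log2 fold change of -2.39 ± 0.14 (edgeR, adjusted p 5.33e-06). The other called EphA receptor genes were lower, as Efna5 was: Epha8 (-0.78 ± 0.20), whose call was lost without cortex WT 2, hippocampus WT 2 or hippocampus WT 3, and Epha10 (-0.41 ± 0.08). Another ephrin gene, Efna3, was higher (0.70 ± 0.11). Among 18 classical cadherins, calcium-dependent adhesion molecules, 5 were higher and 8 lower (median log2 fold change -0.37), and 2 and 6 without hippocampus WT 2 and 3. The log2 fold changes of Cdh7, Cdh18 and Cdh6 were -2.28 ± 0.28, -1.48 ± 0.11 and -1.36 ± 0.16, and that of Cdh9, known from the mossy fibre synapse, was 0.76 ± 0.14.

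In the Wnt pathway, which patterns the hippocampus in development, 12 of 49 genes were higher and 14 lower, shares near those of all tested genes (median log2 fold change 0.06). Dkkl1, a secreted protein related to the Dickkopf inhibitors, measured 15.9, 12.9 and 12.3 CPM in cortex and 1.04, 0.635 and 0.261 CPM in hippocampus, a log2 fold change of -4.48 ± 0.34 (edgeR, adjusted p 2.21e-05). Wnt9a, a ligand gene, was lower (-1.47 ± 0.11), and the ligand gene Wnt7b (23.4, 22.7 and 24.7 CPM in cortex and 47.4, 47 and 45.2 CPM in hippocampus) and Nkd2, an inhibitor of Dishevelled (2.05 ± 0.13), were higher. Fzd7, a Frizzled receptor, measured 5.69, 4.37 and 6.67 CPM in cortex and 8.03, 13.9 and 15.3 CPM in hippocampus, with hippocampus WT 1 nearer to cortex than hippocampus WT 2 and 3. Called members numbered 17 without cortex WT 2, 16 without hippocampus WT 3 and 14 without hippocampus WT 2 and 3, against 26.

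Immediate early genes, which neurons transcribe within minutes of activity, were lower for 13 of 25 and higher for 6, with a median log2 fold change of -0.48. Egr1 measured 252, 269 and 239 CPM in cortex and 84.8, 91.2 and 89.4 CPM in hippocampus, a log2 fold change of -1.52 ± 0.06 (edgeR, adjusted p 6.64e-07). Fos measured 12.9, 11.9 and 18.4 CPM in cortex and 4.16, 3.98 and 5.83 CPM in hippocampus, and Npas4 measured 9.26, 12.1 and 21.6 CPM in cortex and 3.19, 5.04 and 6.59 CPM in hippocampus. All 3 encode transcription factors, and for each the regions did not overlap. For Npas4, highest in cortex WT 3, the log2 fold change was -1.52 with all libraries and -0.90 without cortex WT 2 and 3. Those of Egr1 and Fos without cortex WT 2 and 3 were -1.525 and -1.47. Arc, a synaptic capsid protein, measured 72.2, 74.4 and 138 CPM in cortex and 56.2, 59 and 82.7 CPM in hippocampus and was not called (adjusted p 0.131 by edgeR). Jun measured 43, 39.2 and 39.7 CPM in cortex and 115, 108 and 111 CPM in hippocampus, a log2 fold change of 1.45 ± 0.06 (edgeR, adjusted p 7.87e-07), and Nr4a3, an orphan nuclear receptor, measured 8.77, 8.24 and 7.35 CPM in cortex and 28.9, 32.5 and 32.1 CPM in hippocampus, both higher in hippocampus. Its relative Nr4a1 was lower (-0.76 ± 0.07).

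Of 36 genes of neuronal RNA-binding proteins, 5 were higher and 9 lower (median log2 fold change -0.05), below the shares of all tested genes for the higher ones. Fmr1, the gene of FMRP, measured 118, 127 and 119 CPM in cortex and 95.3, 90.2 and 85.1 CPM in hippocampus, a log2 fold change of -0.43 ± 0.06 (edgeR, adjusted p 0.000568). Nova1, a splicing factor of neurons, measured 108, 116 and 103 CPM in cortex and 55.1, 51.9 and 42.5 CPM in hippocampus. Elavl4, an RNA-stabilising protein, differed by -0.86 ± 0.09, Celf3 by 0.57 ± 0.05 and Celf6 by 0.60 ± 0.08. Mbnl1, the splicing factor that the series also concerns, measured 142, 156 and 160.1 CPM in cortex and 122, 123 and 116 CPM in hippocampus, a log2 fold change of -0.35 ± 0.06 (edgeR, adjusted p 0.00170) that was -0.32 (edgeR, adjusted p 0.0732) without hippocampus WT 2 and 3. The called members numbered 6 without hippocampus WT 2 and 3.

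Glia were described by the same rule. Of 16 astrocyte genes, 8 were higher and 1 lower in hippocampus (median log2 fold change 0.22), and 3 were higher without hippocampus WT 2 and 3. Gfap, the intermediate filament of astrocytes, measured 157, 144 and 161 CPM in cortex and 487, 438 and 465 CPM in hippocampus, a log2 fold change of 1.59 ± 0.06 (edgeR, adjusted p 6.94e-07), and Agt, angiotensinogen, measured 7.17, 5.28 and 9.21 CPM in cortex and 26.6, 25 and 28.5 CPM in hippocampus. The glutamate transporter genes Slc1a2 and Slc1a3 were not called (-0.13 ± 0.07 and 0.12 ± 0.08). Precursors of oligodendrocytes had 6 of 9 genes higher, such as the transcription factor gene Sox10 (27.4, 30.8 and 27.6 CPM in cortex and 36.3, 36.7 and 41.4 CPM in hippocampus), and 3 without hippocampus WT 3. These calls were lost without hippocampus WT 2 and 3. Mbp, the myelin basic protein, measured 2232, 2754 and 2649 CPM in cortex and 2618, 2468 and 2634 CPM in hippocampus and was not called, with a log2 fold change of 0.02 ± 0.08 (edgeR, adjusted p 0.894), and 14 of 16 oligodendrocyte genes were not called. This count rested on single libraries: without cortex WT 1, whose oligodendrocyte markers summed to 6805 TPM against 8525 and 8547 TPM in cortex WT 2 and 3, 7 of the 16 were called, all lower. The 2 called with all libraries, Aspa and Ugt8a, were lower by less than 2-fold. Both lost their calls without cortex WT 2, cortex WT 3, hippocampus WT 2 or hippocampus WT 3, with library size alone as the scaling, and with the replicate number as a block, where 1 other gene was called, higher. Ugt8a lost its call also in a fit of 9 wild-type brain libraries, and DESeq2 called 4 of the 16, 1 higher and 3 lower. Microglia genes were lower for 4 of 13 and endothelial genes for 4 of 12, each by less than 2-fold. The microglia calls were lost without cortex WT 2, cortex WT 3 or hippocampus WT 2, and 1 was left without hippocampus WT 1 or hippocampus WT 3. In endothelium 1 was left without cortex WT 2 or hippocampus WT 3. The microglia and endothelial calls were lost without hippocampus WT 2 and 3 and without cortex WT 2 and 3.

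Genes of cytosolic ribosomal proteins were higher in hippocampus for 31 of 81 tested and lower for 2, with a median log2 fold change of 0.16. Rplp2 measured 46.9, 46.5 and 52.6 CPM in cortex and 73, 67.1 and 80.4 CPM in hippocampus, Rpl18 measured 49.5, 44.7 and 43.3 CPM in cortex and 82.6, 61.2 and 79.5 CPM in hippocampus, and Rplp0 measured 129, 129 and 129 CPM in cortex and 188, 172 and 190.3 CPM in hippocampus. Of the 33 called genes, 1 reached 2-fold, Rps4l (1.05 ± 0.22). Fewer genes of the list were called without cortex WT 2 and 3, where the log2 fold change of Rps4l was 0.62. The summed level was 55885 to 61499 TPM in cortex and 59280 to 67360 TPM in hippocampus, so the regions overlapped. Counts of ribosomal protein genes can be shared with their pseudogenes. Nuclear genes of oxidative phosphorylation were higher for 15 of 81 and lower for 8, below the shares of all tested genes (median log2 fold change 0.08). Called members numbered 6 without cortex WT 2, 8 without hippocampus WT 3, 3 without hippocampus WT 2 and 3, and 5 without cortex WT 2 and 3.

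Several of the largest differences fell outside the lists, whereas Folr1 and Kl, given below, are members of the choroid plexus list described above. Krt2, a keratin, measured 0.114, 0.0729 and 0.227 CPM in cortex and 7.49, 6.17 and 5.93 CPM in hippocampus, a log2 fold change of 5.53 ± 0.29 (edgeR, adjusted p 3.12e-06), and Pla2g2f, a secreted phospholipase, measured 0.0380, 0.0729 and 0.0379 CPM in cortex and 2.22, 2.4 and 2.42 CPM in hippocampus. Zcchc5 measured 0, 0.0729 and 0.114 CPM in cortex and 3.62, 3.35 and 3.89 CPM in hippocampus. All 3 were under 0.3 CPM in every cortex library. Dmrt3, a factor of commissural interneurons elsewhere in the nervous system and of the embryonic medial pallium, had 0, 3 and 0 counts in cortex and 20, 62 and 87 counts in hippocampus. Folr1, Krt18 and Kl, which choroid plexus expresses, were at 0.304, 0.474 and 0.531 CPM in cortex and 0.932, 35.5 and 30.7 CPM in hippocampus for Folr1, 0.228, 0.328 and 0 CPM in cortex and 0.681, 11.1 and 11.8 CPM in hippocampus for Krt18, and 3.95, 2.51 and 6.1 CPM in cortex and 21.5, 264 and 203 CPM in hippocampus for Kl. Without hippocampus WT 2 and 3 the log2 fold change of Folr1 was 1.09 (edgeR, adjusted p 0.206), that of Krt18 1.84 (edgeR, adjusted p 0.243) and that of Kl 2.37 (edgeR, adjusted p 0.00367). Kl, the co-receptor for fibroblast growth factor 23, was thus called also from hippocampus WT 1, where its level was above all cortex libraries.

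Among the genes named by size on the cortical side, Rasgef1c, an exchange factor of small GTPases, measured 29.6, 30.5 and 29.8 CPM in cortex and 1.93, 1.59 and 1.45 CPM in hippocampus, a log2 fold change of -4.19 ± 0.12 (edgeR, adjusted p 1.31e-07). Stat4, a cytokine signal transducer, measured 3.19, 3.5 and 3.71 CPM in cortex and 0.322, 0.141 and 0.119 CPM in hippocampus. The noncoding RNA gene Gm10635 (chromosome 9, 79444037 to 79519302, minus strand) measured 3.91, 6.23 and 5.46 CPM in cortex and 0.0358, 0.0705 and 0.0237 CPM in hippocampus, and A830009L08Rik, a noncoding RNA gene too, measured 5.84, 6.16 and 3.79 CPM in cortex and 0.0358, 0.141 and 0.142 CPM in hippocampus. Gm765 measured 2.5, 2.0 and 1.4 CPM in cortex and 0.0358, 0.0705 and 0.0237 CPM in hippocampus. Of these 5 genes, A830009L08Rik and Gm765 were lowest in cortex WT 3, and for the other 3 genes cortex WT 3 lay close to cortex WT 2. Cd4 measured 3.3, 8.2 and 17.6 CPM in cortex and 0.179, 0.176 and 0.308 CPM in hippocampus, and Serpina9 measured 1.18, 1.82 and 7.51 CPM in cortex and 0.0717, 0.0353 and 0 CPM in hippocampus. Both were highest in cortex WT 3, where striatal markers were highest, and their levels in cortex WT 1 were still above those of every hippocampus library.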

How the data were processed

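RNA of wild-type mouse cortex (3 samples) and hippocampus (3 samples) was measured by directional poly(A) RNA-seq. The authors deposited raw counts per gene and TPM for the same libraries. The submitters' processing notes name CASAVA, FastQC 0.11.8, Trimmomatic 0.39, Bowtie2 2.3.5, STAR 2.6.1, RSEM 1.3.1 and DESeq2 1.16.1 with the builds GRCm38 and mm10, and whether counting used the strand is not given in the sources used here. No per-sample column lacked a sample.

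Counts of the 6 libraries were fitted with edgeR 4.0.16 (R 4.3.3) after filterByExpr and TMM scaling, with the quasi-likelihood test, region as the term and Benjamini-Hochberg adjustment over 14871 genes. Coordinates are those of the GRCm38 gene table, and sequences are from RefSeq on GRCm38.p6, where 11172 of the tested genes had a stretch. Genes were named by rule: the 10 called genes with the largest fold change in each direction with regions that did not overlap and a mean count of at least 50 in the higher region, up to 3 called members per list and direction with that mean count, and a fixed set of identity and check genes. A further 44 genes in the text were chosen after their values were seen. The gene lists and the comparison itself were chosen with earlier results of these data known. On simulated counts of this comparison (14752 genes), 64 of 100 genes with a 1.5-fold change and 95 of 100 with a 2-fold change were called, and 17 of 14552 unchanged genes. Each gene was simulated independently, without the shared differences between libraries in striatal or choroid plexus markers. The rate of false calls in the real data therefore cannot be read from the simulated counts. Alternatives were RLE factors, library size alone, no filter, a fit of 9 wild-type brain libraries, DESeq2 1.42.0, a replicate block and leaving out each library, and 2 fits without the libraries rich in choroid plexus or striatal genes were added after the data were seen. Values of some single genes in the lists are not reported here.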

Additional observations from a re-analysis of the deposited data

How the results depend on the processing

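Over 12 other fits the number of called genes lay between 4432 (without hippocampus WT 3) and 6610 (9 wild-type brain libraries), and the number called at 2-fold or more between 1186 (without hippocampus WT 3) and 1612 (without hippocampus WT 1). DESeq2 called 6054 and no filter on low counts gave 6310. The share of higher calls was 49.1% to 54%, and no call shared with the reported fit had the opposite sign in these 12. Leaving out 1 library at a time gave 4432 to 6125 called genes. Of 245 called genes among the 251 named by rule or in the text, 213 were called in each of the 12, 62 lost their call without hippocampus WT 2 and 3, where 3 more changed sign, and 49 without cortex WT 2 and 3. Without hippocampus WT 2 and 3, a fit chosen after seeing the data in which the lone library is assumed to vary like cortex, 2418 genes were called, 848 of them by at least 2-fold. There the log2 fold changes of Ttr, Slc4a5 and Igf2 were -2.10, -1.61 and -0.26. Without cortex WT 2 and 3, chosen likewise, 4093 genes were called. The fold change of Mbp, near 0 and not called, was -0.000984 with 9 libraries and -0.0802 to 0.0824 when 1 library was left out. The cause of these shifts was not tested, other than that the smaller fits hold fewer libraries.

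With the replicate number as a replicate block 6281 genes were called, 1399 of them by at least 2-fold. Same-numbered libraries of the 2 regions deviated together only weakly or not at all (correlations of 0.139, -0.060 and 0.159), so the numbers were not taken as pairs. The design of 3 against 3 libraries recovered fewer small differences than large ones in simulated counts.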
